A study of Mus musculus with 20 samples.

Results

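The response of the mouse heart to a high-fat diet was measured over both genotypes of the study at once. All 10 left ventricle libraries of mice fed the high-fat diet (HFD) were compared with all 10 libraries of mice fed chow, which together are all 20 libraries of the series, and the genotype stood in the fit as a block. The aim of pooling was to describe the diet responses that both genotypes shared. Each diet held 5 WT and 5 iKO hearts from male mice. The iKO genotype combined floxed alleles of Acacb, which encodes acetyl-CoA carboxylase 2 (ACC2), with a MerCreMer transgene, a Cre recombinase that tamoxifen activates. The labels do not name its promoter. The mice labelled WT were littermates with the floxed alleles and no Cre. Both genotypes received tamoxifen at 20 mg/kg on 5 days from 8 weeks of age, and 4 weeks after the last dose they were kept on chow or moved to HFD (Research Diets) for 16 weeks. No group had the Cre without floxed alleles. Every mouse on chow has a library number from RT1 to RT10 and every mouse on HFD one from RT11 to RT20, the labels give no batch, and any technical difference between those runs of numbers cannot be told apart from the diet.

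The adult heart draws most of its energy from fatty acids. These are taken up from the blood, bound by carrier proteins in the cytosol, activated to acyl-CoA and carried into mitochondria by the carnitine shuttle, where beta-oxidation shortens them. ACC2 makes malonyl-CoA, which inhibits the shuttle. Fatty acids also bind the nuclear receptor PPAR-alpha, which with its partner RXR switches on many genes of this route, and the Randle cycle describes how fatty acid use in the heart goes with lower oxidation of glucose.

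Values are FPKM, that is fragments mapped to a gene per length of transcript and per depth of the library, so they can be compared between genes, and they are given after scaling the libraries to each other. Of 25052 genes listed, 12775 reached at least 0.5 FPKM in at least 5 libraries and were tested. Fold changes are HFD over chow on the log2(FPKM + 1) scale, on which changes of weakly expressed genes come out too small. A gene was called when its p-value from limma, adjusted over all genes tested by Benjamini-Hochberg, was under 0.05. Depth estimated from the files was 12.5 to 24.1 M assigned reads on chow (median 21.5) and 20.5 to 31.9 M on HFD (median 24.6). Transcripts of the mitochondrial genome took 30.1% to 33.9% of all FPKM on chow and 34.2% to 36.5% on HFD. RT1 (WT, chow) and RT4 (iKO, chow) stood apart by atrial transcripts. The summed level of 7 atrial muscle markers was 677 scaled FPKM in RT1 and 332 in RT4, the highest sums of all libraries. The median on chow was 134, and HFD libraries reached at most 119. This sum includes Nppa, which was itself called lower on HFD, so its distance from the HFD libraries is not a measure of atrial tissue alone. The marker Sln was at 53.8 in RT1 and 5.43 in RT4. It was at most 0.206 in the other chow libraries and at most 0.47 on HFD, while the marker Bmp10 never reached 0.5 in any library. Several results that the atrial transcripts could touch are given with and without RT1 and RT4. Acacb itself was at 35.9 to 44.3 scaled FPKM in the WT libraries and 8.14 to 12.2 in the iKO libraries, on either diet. The labelled tissue held its defining markers, with a summed level of 11 cardiomyocyte markers between 35872 and 48352 scaled FPKM in every library.

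On HFD, 1329 genes were called (10.4% of the genes tested), 699 of them higher (5.47%) and 630 lower (4.93%). Most changes were small: the median size of a called change was 0.22 on the log2 scale, 10 genes rose by more than 1 and 5 fell by more than 1. On the FPKM as deposited, without scaling, the median of all genes was -0.079 and 327 genes were called higher and 3050 lower, so all changes below are relative to the scaled libraries. The median depth was higher on HFD, and with estimated depth as a covariate 830 genes were called. Acaca, Acot4, Bcat2, Bckdhb, Ccl2, Fbn1, Fhl1, Hsd17b10, Insig1, Ldhb, Lpl, Mpc1, Myh7, Myl2, Nppa, Pdk2, Per2, Psat1, Psph, Ptgds, Slc2a4 and Txnip, named below, were then not called. The depths are rough estimates, since 58.6% to 73.5% of the short genes used for them came out at whole reads. Depth also went with diet, and whether these calls were lost through depth itself was not tested. Among the genes with increases of more than 1 were those of the pyruvate dehydrogenase kinase Pdk4, the lipase inhibitor Angptl4, the acyl-CoA thioesterase Acot1, the transferrin receptor Tfrc and the mitochondrial carrier Ucp3. The largest decreases were those of the transaminase Abat, the secretoglobin Scgb1c1, the natriuretic peptides Nppa and Nppb, and the G protein beta subunit Gnb3. All 10 HFD libraries lay above all 10 chow libraries for 48 genes (0.376% of the genes tested) and below them for 37 (0.29%).

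Sequence upstream of 3 called lipid genes is shown because the list of PPAR-alpha targets moved together on HFD and these 3 promoters hold a half-site of the motif to which PPAR and RXR bind. The windows are the 250 bases before a start of transcription from RefSeq (GRCm38.p6), written 5′ to 3′ along the gene's strand, and capitals mark AGGTCA on either strand. Plin5 has 2 such starts, and the window shown is the first listed that holds the half-site. They lie at chr7:100472741-100472990 (plus strand) for Ucp3, chr17:56117549-56117798 (minus strand) for Plin5 and chr4:86670060-86670309 (minus strand) for Plin2.
Ucp3: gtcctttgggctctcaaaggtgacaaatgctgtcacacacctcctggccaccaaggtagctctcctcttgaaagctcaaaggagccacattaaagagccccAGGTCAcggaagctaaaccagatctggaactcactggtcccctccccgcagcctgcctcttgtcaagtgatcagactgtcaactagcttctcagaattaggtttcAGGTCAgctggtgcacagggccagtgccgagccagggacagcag
Plin5: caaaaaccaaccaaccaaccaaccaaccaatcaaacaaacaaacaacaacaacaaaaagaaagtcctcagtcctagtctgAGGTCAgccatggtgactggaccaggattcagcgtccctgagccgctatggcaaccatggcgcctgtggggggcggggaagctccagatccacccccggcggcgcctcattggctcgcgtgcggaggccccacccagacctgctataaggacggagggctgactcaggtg
Plin2: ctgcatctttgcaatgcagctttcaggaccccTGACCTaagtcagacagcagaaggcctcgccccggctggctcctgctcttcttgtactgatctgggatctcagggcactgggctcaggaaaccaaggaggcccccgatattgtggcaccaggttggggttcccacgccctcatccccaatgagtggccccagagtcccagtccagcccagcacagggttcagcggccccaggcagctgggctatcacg
The Ucp3 window holds 2 half-sites, the first at bases -149 to -144 from the start, and the other windows hold 1 each, at -170 to -165 in Plin5 and at -218 to -213 in Plin2. Of the 32 tested PPAR-alpha targets 26 had a window, and 7 of these held the half-site in at least 1 window. Of all 32851 windows 14.02% held it. The first count is of genes, which can have several windows, and the second of single windows, so they are not directly comparable. The full direct repeat AGGTCANAGGTCA, searched on both strands, was in none of the 26 and in 0.03348% of all windows. A match of letters is a description and not a binding site.

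PPAR-alpha target genes rose together. Of 32 tested members of this list, 30 were called higher and none lower, and the median change was 0.43, against -0.0017 over all genes tested. The median was 0.32 in WT and 0.55 in iKO. Fads2 and Tfeb, each at -0.03, were the members without a call. A further 6 listed members stayed under the minimum level, among them the hormone gene Fgf21, which was at most 0.049 scaled FPKM on chow and 0.261 on HFD. The list shares members with the lists of fatty acid handling described next, so the counts are not independent of each other.

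Pdk4, the kinase that shuts off pyruvate dehydrogenase, rose by 2.35 ± 0.29 (limma, adjusted p = 4.06e-05), from 26.1 to 145 scaled FPKM on chow (median 62.5) to 144 to 512 on HFD (median 325). Only the lowest HFD library, RT16 in WT, fell inside the chow range. Angptl4, a secreted inhibitor of lipoprotein lipase, was at 0.730 to 4.09 scaled FPKM on chow (median 2.22) and at 5.51 to 20.0 on HFD (median 10.1), with no overlap and a change of 1.88 ± 0.23 (limma, adjusted p = 2.60e-05).

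**Figure D1:**
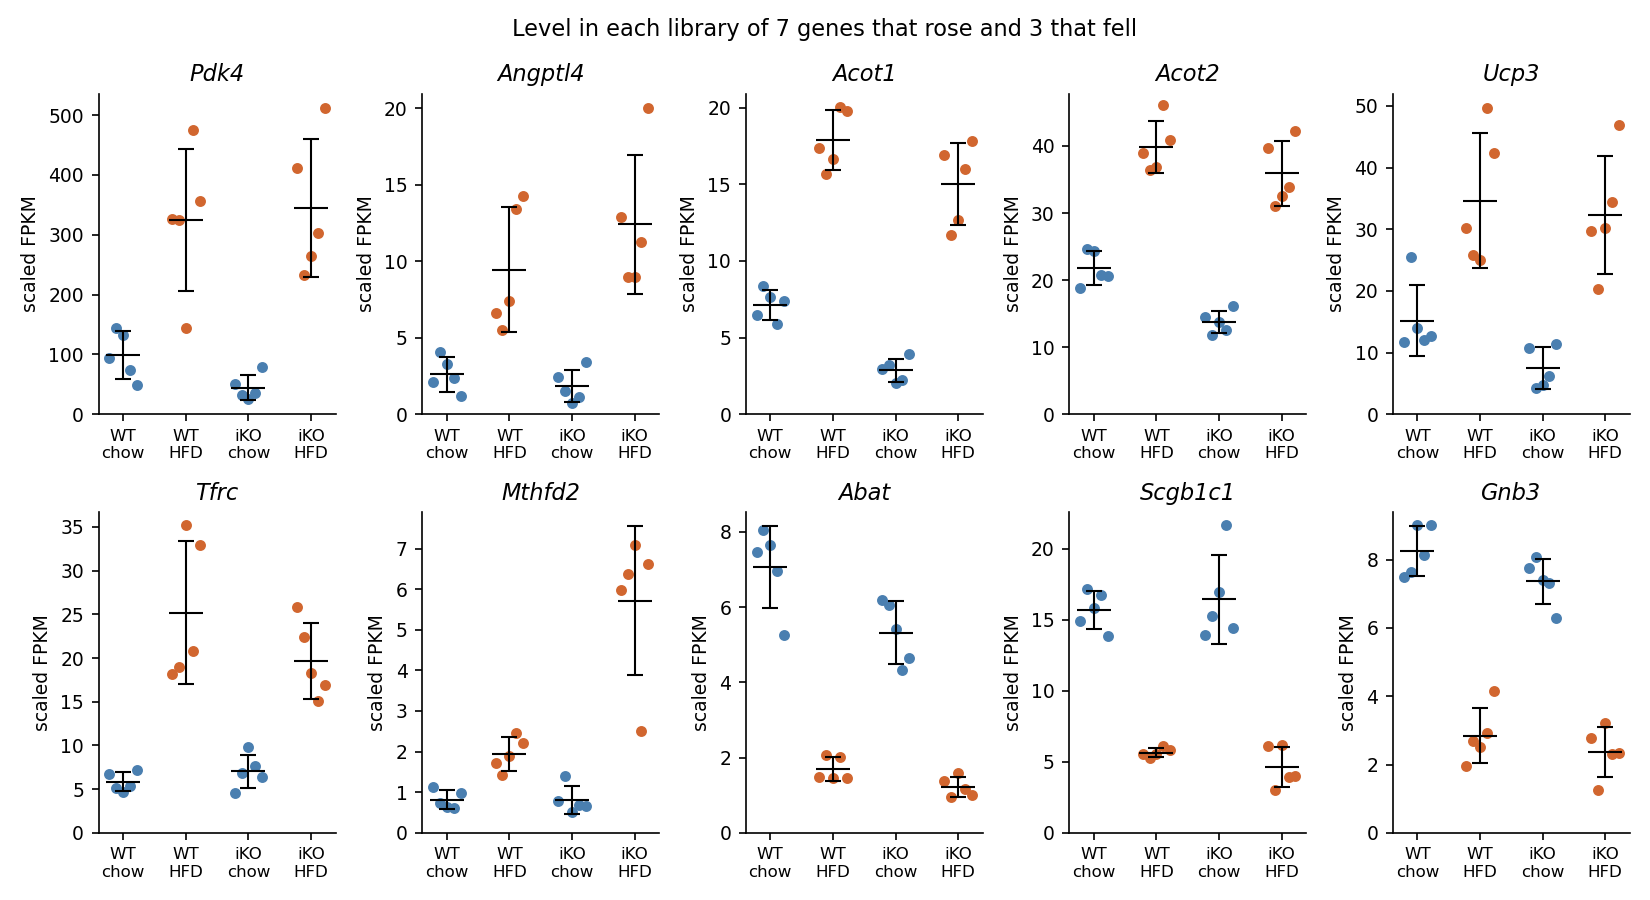
Scaled FPKM (y axis, linear) of 10 genes in each of the 20 libraries, by genotype and diet; points are libraries, the long bar is the mean of 5 mice and the error bars are SD. For Acot1 the 10 HFD libraries sit between 11.7 and 20.0, above all chow libraries, while for Abat they sit between 0.952 and 2.07, below all chow libraries.

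Fatty acid uptake and binding rose at several steps. Of 15 tested members of this list 6 were called higher and none lower, with a median of 0.06 (-0.009 without scaling, when 4 were called lower). Cd36, the fatty acid translocase of the cell surface, was between 520 and 838 scaled FPKM on chow (median 752) and between 853 and 1063 on HFD (median 954). Its diets did not overlap, and the change was 0.44 ± 0.06 (limma, adjusted p = 2.11e-05). Fabp3, the main fatty acid binding protein of cardiomyocytes, was at 2333 to 3448 scaled FPKM on chow (median 2910) and 3536 to 5130 on HFD (median 4035). It rose by 0.51 ± 0.04, also without overlap. Dbi, the acyl-CoA binding protein, had one of the 5 smallest p-values of the comparison: its level went from 91.4 to 129 scaled FPKM on chow to 131 to 218 on HFD, a change of 0.64 ± 0.04 (limma, adjusted p = 1.43e-09), with 0.63 in WT and 0.65 in iKO. The acyl-CoA synthetase Acsl1 rose by 0.33, the transport protein Slc27a1 by 0.30 and the endothelial carrier Fabp4 by 0.35. Ppara itself was not called (-0.02 ± 0.10), at medians of 11.9 scaled FPKM on chow and 12.7 on HFD, and among 16 regulators the receptors Pparg (0.49) and Rxrg (0.16) were called higher. Rxrg was not called without scaling (limma, adjusted p = 0.243) or with no minimum on low values (adjusted p = 0.0591).

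The summed level of 11 endothelial markers, which include Fabp4, was 509 to 723 scaled FPKM on chow and 721 to 817 on HFD. This sum rests largely on Fabp4 itself, which made up 578 of the 817 in RT18, the library with the highest sum. Fabp4 was also the 1 marker of the 11 that was called, and the median change of the list was 0.07. In bulk tissue a change in the number of cells of a type cannot be told apart from a change of RNA per cell, and the part of endothelial cells in the higher Cd36 and Fabp4 levels was not tested. Of the other genes of the lipoprotein lipase system, Lpl, which releases fatty acids from circulating triglyceride, fell by 0.19 ± 0.05 (limma, adjusted p = 0.00648). Its ranges overlapped widely, 998 to 1565 scaled FPKM on chow and 992 to 1372 on HFD, and the call was lost when estimated depth was a covariate (adjusted p = 0.102). Gpihbp1, which anchors the lipase on capillaries, rose by 0.33 (adjusted p = 0.0658 without RT1 and RT4).

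All but 1 of the 7 carnitine shuttle genes were called higher, with a median of 0.36. The carrier Slc25a20 rose by 0.62 ± 0.05 (limma, adjusted p = 3.29e-08), from 64.4 to 108 scaled FPKM on chow (median 82.2) to 109 to 155 on HFD (median 131), with no overlap. The inner membrane transferase Cpt2 rose by 0.50 ± 0.05, from 62.6 to 98.1 scaled FPKM to 95.0 to 123, and 2 HFD libraries lay inside the chow range. Crat, which exchanges short acyl groups, rose by 0.36 and the carnitine importer Slc22a5 by 0.38. At the outer membrane step, on which malonyl-CoA acts, Cpt1b, the muscle form, rose by 0.30 ± 0.04 and Cpt1a, the liver form, by 0.35 ± 0.07. Cpt1b was at 124 to 175 scaled FPKM on chow and 161 to 196 on HFD, and Cpt1a at 7.99 to 13.7 and 12.7 to 15.5, so that both overlapped between the diets. In WT alone neither was called (Cpt1b 0.18, adjusted p = 0.069; Cpt1a 0.15, adjusted p = 0.41), while in iKO both were (0.43 and 0.55). The test of that difference gave adjusted values over 0.05 for every gene of the study.

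Mitochondrial beta-oxidation genes rose in most of their steps, with 15 of 21 members called higher, 1 lower and a median of 0.26. Decr1, which prepares unsaturated fatty acids for the cycle, had a further one of the 5 smallest p-values, with 91.6 to 162 scaled FPKM on chow (median 133) and 173 to 247 on HFD (median 206). The diets did not overlap, and it rose by 0.69 ± 0.05 (limma, adjusted p = 8.72e-09). The dehydrogenases Acadvl (0.40), Acadl (0.38) and Acadm (0.23), which start the cycle for very long, long and medium chains, the trifunctional protein subunits Hadha (0.45) and Hadhb (0.36) and the thiolase Acaa2 (0.48) were all called higher. The isomerases Ech1 (0.58) and Eci2 (0.38) and the electron acceptor Etfdh (0.43) rose with them. The member that fell was Hsd17b10 (-0.21), a dehydrogenase that also acts in isoleucine breakdown.

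The thioesterases, which free fatty acids from acyl-CoA, split by gene. Acot1 and Acot2 are near-identical neighbours on chromosome 12, so reads can be divided between them by the counting method and their separate values are uncertain. Acot1 was at 2.01 to 8.35 scaled FPKM on chow (median 4.89) and 11.7 to 20.0 on HFD (median 16.8), and Acot2 at 11.8 to 24.6 and 31.0 to 46.1. Neither gene overlapped between the diets, with changes of 1.64 ± 0.13 and 1.08 ± 0.08. Acot3 and Acot4 of the same cluster were called too (0.38 and 0.20) at levels under 1 scaled FPKM, and the other 7 tested thioesterases were not called. Both tested uncoupling proteins, carriers of the inner mitochondrial membrane, rose. Ucp3 went from 4.34 to 25.4 scaled FPKM on chow (median 11.6) to 20.3 to 49.7 on HFD (median 30.2), a change of 1.58 ± 0.22, and only RT3 on chow reached into the HFD range. Ucp2 rose by 0.73 ± 0.09 without overlap, from at most 27.5 to at least 27.6 scaled FPKM.

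Of 18 peroxisomal members 8 were called higher, none lower, with a median of 0.12. Pex11a, which drives division of peroxisomes, rose by 0.58 ± 0.06, from 5.97 to 10.5 scaled FPKM to 9.82 to 16.8. The fatty acid importer Abcd3 (0.38) and catalase, Cat (0.35), rose without overlap. Ephx2, which hydrolyses epoxides of fatty acids, had the second smallest p-value among all genes, with 76.6 to 119 scaled FPKM on chow (median 100.5) and 133 to 193 on HFD (median 153). Its change was 0.64 ± 0.04 (limma, adjusted p = 7.55e-10), with no overlap.

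Lipid droplet genes rose in the coat and in lipolysis alike. Of 16 tested members 8 were called higher and none lower, with a median of 0.21. Plin5, the droplet coat protein that docks droplets to mitochondria and whose upstream window is printed above, was at 28.7 to 47.1 scaled FPKM on chow (median 38.1) and 44.8 to 84.4 on HFD (median 67.5), a change of 0.75 ± 0.09. A single HFD library lay inside the chow range. Plin2, the general coat protein, rose without overlap from 19.3 to 25.6 scaled FPKM to 25.9 to 34.7, by 0.46 ± 0.05. The lipases Pnpla2 (0.26), Lipe (0.59) and Mgll (0.29), which act mainly on triglyceride, diglyceride and monoglyceride in that order, and the droplet fusion protein Cidea (0.43) and coat protein Plin4 (0.47) were called higher. Of 9 white adipocyte markers 5 never reached 0.5 scaled FPKM in any library, Plin1 and Lep among them, and the 1 member tested was Lipe. Adipoq stayed at or below 0.508 scaled FPKM and Nnat at or below 0.546. Cfd reached 2.443 scaled FPKM in RT1, 1.727 in RT4 and 0.972 in RT9, all on chow, and at most 0.395 on HFD. Of triglyceride synthesis genes, Agpat3 (0.36) and Gpam (0.40) were called higher among 12 tested.

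**Figure D2:**
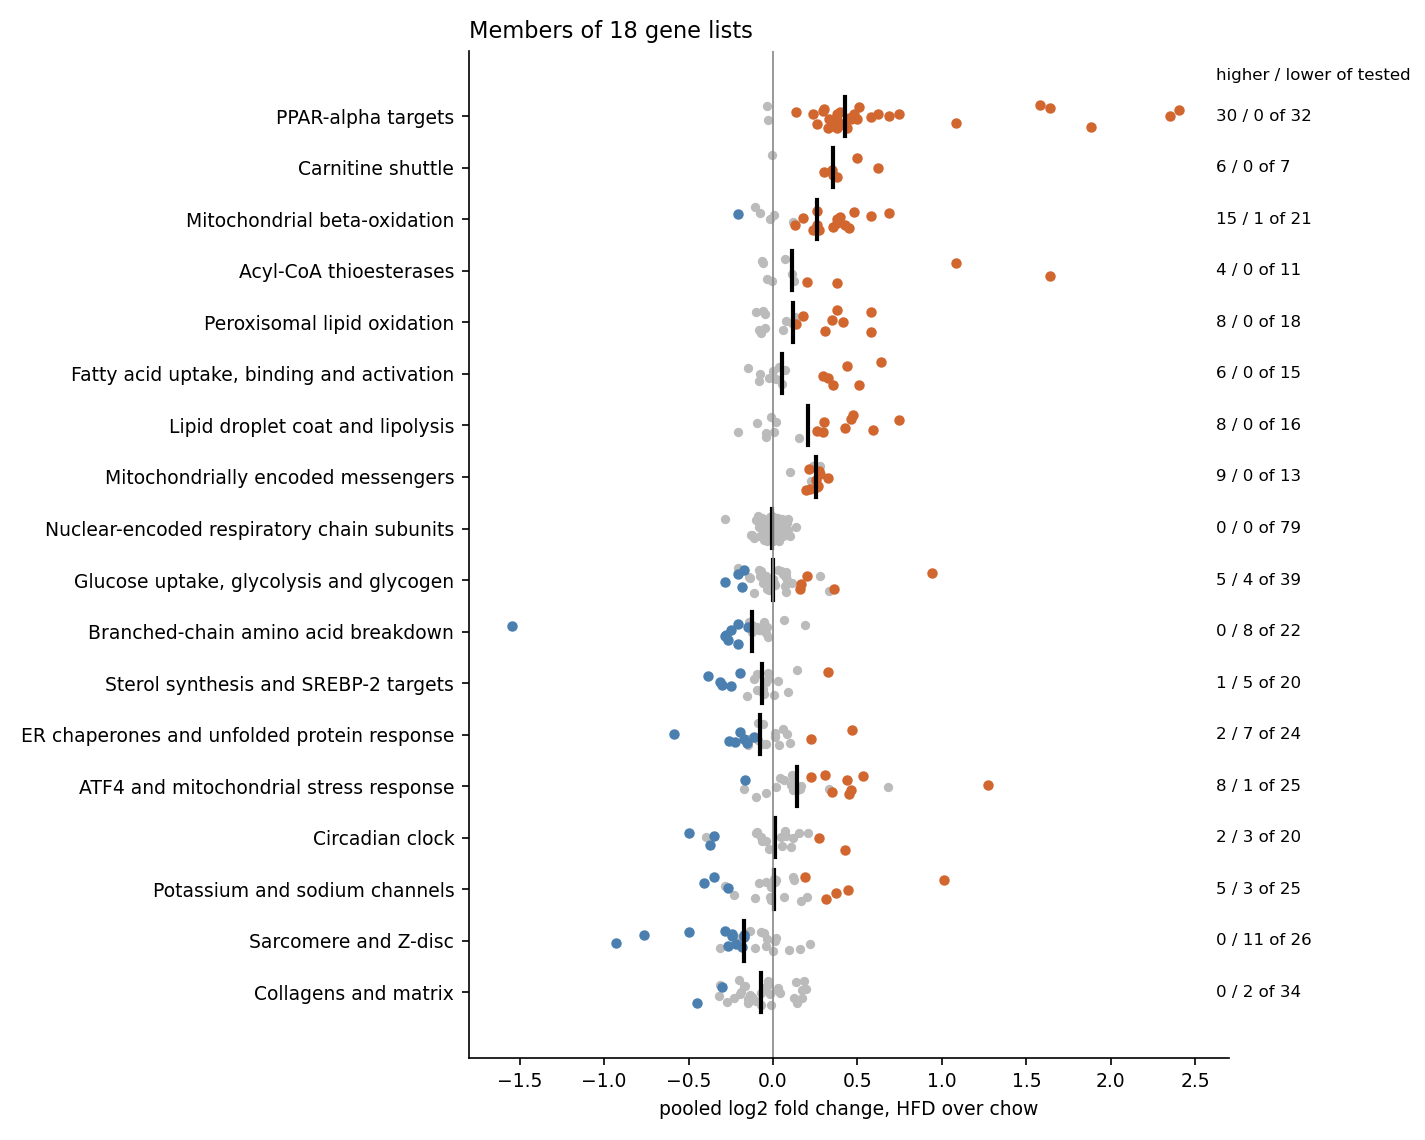
Pooled log2 fold change, HFD over chow (x axis), of every tested member of 18 gene lists (rows); orange points were called higher, blue points lower, grey points were not called, the black bar is the median of the list and the numbers give members higher, lower and tested. The PPAR-alpha target list has its median at 0.43 and the sarcomere list at -0.17.

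Of 6 tested enzymes of malonyl-CoA 2 were called higher and 1 lower, with a median of 0.03. For Acacb the pooled diet change was 0.19 ± 0.05 (limma, adjusted p = 0.0218), with 0.07 in WT and 0.30 in iKO, and without RT1 and RT4 it was no longer called (adjusted p = 0.0635), nor without scaling (adjusted p = 0.172). Mlycd, which destroys malonyl-CoA, rose by 0.33, from 25.7 to 48.4 scaled FPKM to 36.5 to 52.0, and Acaca, the cytosolic carboxylase, fell by 0.21 at levels of 1.46 to 2.68. Malic enzyme Me1, a source of NADPH, rose by 0.42 ± 0.04 without overlap. In the sterol synthesis list 5 of 20 members were called lower and 1 higher, with a median of -0.06. Idi1, an isomerase of the mevalonate pathway, fell by 0.38 ± 0.05 without overlap, from 2.81 to 3.65 scaled FPKM to 1.84 to 2.60, and Srebf2, the transcription factor of this pathway, fell by 0.25 ± 0.04 without overlap. The kinase Mvk (-0.30) was lower, while Insig1, which holds back the pathway, was higher (0.32, but adjusted p = 0.0522 without scaling).

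Genes of glucose and ketone use moved in both directions. Slc2a4, the insulin-responsive glucose transporter GLUT4, was at 139 to 165 scaled FPKM on chow (median 153) and 122 to 150 on HFD (median 136), with overlap and a change of -0.17 ± 0.04 (limma, adjusted p = 0.0134). With estimated depth as covariate it was -0.12 and no longer called (adjusted p = 0.183). Slc2a1, the basal transporter GLUT1, fell by 0.28 ± 0.06, the mitochondrial pyruvate carrier subunit Mpc1 by 0.15, and lactate dehydrogenase subunit Ldhb by 0.21, while subunit Ldha rose by 0.17 (0.07 and not called without scaling, adjusted p = 0.225). Pyruvate carboxylase, Pcx, fell from 6.27 to 8.02 scaled FPKM to 4.05 to 6.01, with no overlap and a change of -0.44 ± 0.05 (limma, adjusted p = 1.08e-06). The kinase genes of pyruvate dehydrogenase moved apart, with Pdk1 at 0.25 and Pdk2 at -0.17 beside the 2.35 of Pdk4. Fbp2, the muscle fructose-bisphosphatase, rose from 7.08 to 17.8 scaled FPKM (median 13.4) to 20.1 to 31.3 (median 23.5), with no overlap and a change of 0.94 ± 0.08, and the liver-type phosphofructokinase Pfkl rose by 0.36. Over the whole list of 39 glucose genes 5 were called higher and 4 lower, with a median of 0.0, beside 5.47% and 4.93% of all genes tested. Without scaling 2 were higher and 18 lower. Oxct1, which lets the heart burn ketone bodies, fell from 344 to 421 scaled FPKM to 274 to 357, with overlap, by 0.32 ± 0.04 (limma, adjusted p = 3.12e-06). The ketone body transporter Slc16a7 was lower by 0.37, and the thiolase Acat1 rose by 0.23. Of 7 tested ketone genes 2 were called higher and 2 lower.

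Abat, which encodes 4-aminobutyrate aminotransferase, had the smallest p-value of all genes tested. It was at 4.32 to 8.06 scaled FPKM on chow (median 6.12) and 0.952 to 2.07 on HFD (median 1.45). The diets lay far apart, and the change was -1.58 in WT and -1.51 in iKO, with a pooled change of -1.54 ± 0.08 (limma, adjusted p = 6.85e-12). The gene lies at chr16:8513429-8621568 (GRCm38). Because the enzyme also acts on an intermediate of valine, it stood in the list of branched-chain amino acid breakdown. In that list 8 of 22 tested members were called lower and none higher, beside 4.93% of all genes tested called lower. The median was -0.12, and 20 of the 22 estimates were below 0. In the single genotypes 1 member was called lower in WT (median -0.10) and 5 in iKO (median -0.13). Ivd and Acadsb, dehydrogenases of leucine and isoleucine breakdown, fell by 0.28 each, Bckdhb, a subunit of the branched-chain ketoacid dehydrogenase, by 0.27 and the transaminase Bcat2 by 0.21. Without RT1 and RT4 15 members were called lower, and with estimated depth as covariate 4 were.

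Most transcripts encoded by mitochondria rose, while no nuclear subunit in the respiratory chain list was called. Of 13 mitochondrially encoded messengers 9 were called higher and none lower, with a median of 0.26 (0.24 in WT, 0.26 in iKO). Of 79 listed nuclear-encoded respiratory chain subunits none was called by limma in either direction, beside 10.4% of all genes tested. Their median was -0.01, and 8 had an unadjusted p under 0.05. The listed nuclear subunit with the smallest p-value, Ndufa3, was at 0.14 (adjusted p = 0.0579), and it was called when depth was a covariate or RT14 or RT17 was left out. Sdhc, a complex II subunit, stood in the tricarboxylic acid cycle list instead and was called higher. Its change was 0.120 to 0.157 with single libraries left out, and 9 of these fits lost the call. The complex I subunit mt-Nd2 went from 14714 to 19594 scaled FPKM on chow to 21115 to 25405 on HFD, without overlap. Its change was 0.33 ± 0.05 (limma, adjusted p = 8.71e-05), and those of mt-Nd4, mt-Cytb and mt-Co1 were 0.28, 0.27 and 0.22. Without scaling the list kept 8 calls with a median of 0.16, the nuclear list then had 43 members called lower with a median of -0.11, and the median of all genes was -0.079. Reads of mitochondrial transcripts can also be assigned to near-identical nuclear copies, so the levels are uncertain. The nuclear pseudogene Gm28437 was called higher as well (0.22).

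Of 25 tested members of the ATF4 list, genes that the transcription factor ATF4 turns on, 8 were called higher and 1 lower, with a median of 0.14. In the single genotypes 1 member was called higher in WT (median 0.07) and 6 in iKO (median 0.20). Mthfd2, an enzyme of mitochondrial folate metabolism, was at 0.523 to 1.40 scaled FPKM on chow (median 0.713) and 1.42 to 7.09 on HFD (median 2.49), without overlap. The pooled change was 1.27 ± 0.18 (limma, adjusted p = 0.000137), and it was 0.69 in WT and 1.85 in iKO. Among the iKO hearts on HFD, 4 were between 5.98 and 7.09 scaled FPKM and RT17 was at 2.51. Atf5, a transcription factor of the mitochondrial stress response, rose by 0.53 ± 0.08 (0.29 in WT and 0.77 in iKO), the folate enzyme Aldh1l2 by 0.45, the pseudokinase Trib3 by 0.35 and asparagine synthetase, Asns, by 0.44. Of the enzymes of serine synthesis, Phgdh rose by 0.31 and Psat1 by 0.23, at most at 1.48 and 1.80 scaled FPKM, and Psph fell by 0.17. The call of Psat1 was lost without RT2 (limma, adjusted p = 0.0518), RT11 (0.051) or RT1 and RT4 together (0.0504), and that of Psph (0.0357) without any of 11 single libraries. Of 24 tested chaperones and related genes of the endoplasmic reticulum 7 were called lower and 2 higher, with a median of -0.08. In WT 5 were called lower (median -0.13) and in iKO 1 (median -0.02), and no gene of either list had a called difference between genotypes. The co-chaperone Sdf2l1 fell by 0.59 ± 0.07 without overlap, from 2.38 to 3.99 scaled FPKM to 1.45 to 2.21. Calreticulin, Calr (-0.20), the disulfide isomerase Pdia6 (-0.23) and Hsp90b1 (-0.17) were called lower, while Herpud1, part of the degradation machinery, was called higher (0.47, but adjusted p = 0.0576 without RT1 and RT4).

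Iron uptake stood out through 1 gene. Tfrc, the transferrin receptor, was at 4.60 to 9.78 scaled FPKM on chow (median 6.54) and 15.1 to 35.2 on HFD (median 19.9), with no overlap. It rose by 1.64 ± 0.15 (limma, adjusted p = 8.11e-07), by 1.90 in WT and 1.37 in iKO, and the gene lies at chr16:32608920-32632794 (GRCm38). Among the 21 tested genes of iron handling and haem, 1 was called higher and 1 lower, and the median was 0.001. Over all genes tested 5.47% were called higher and 4.93% lower, so the list as a whole was close to those shares.

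**Figure D3:**
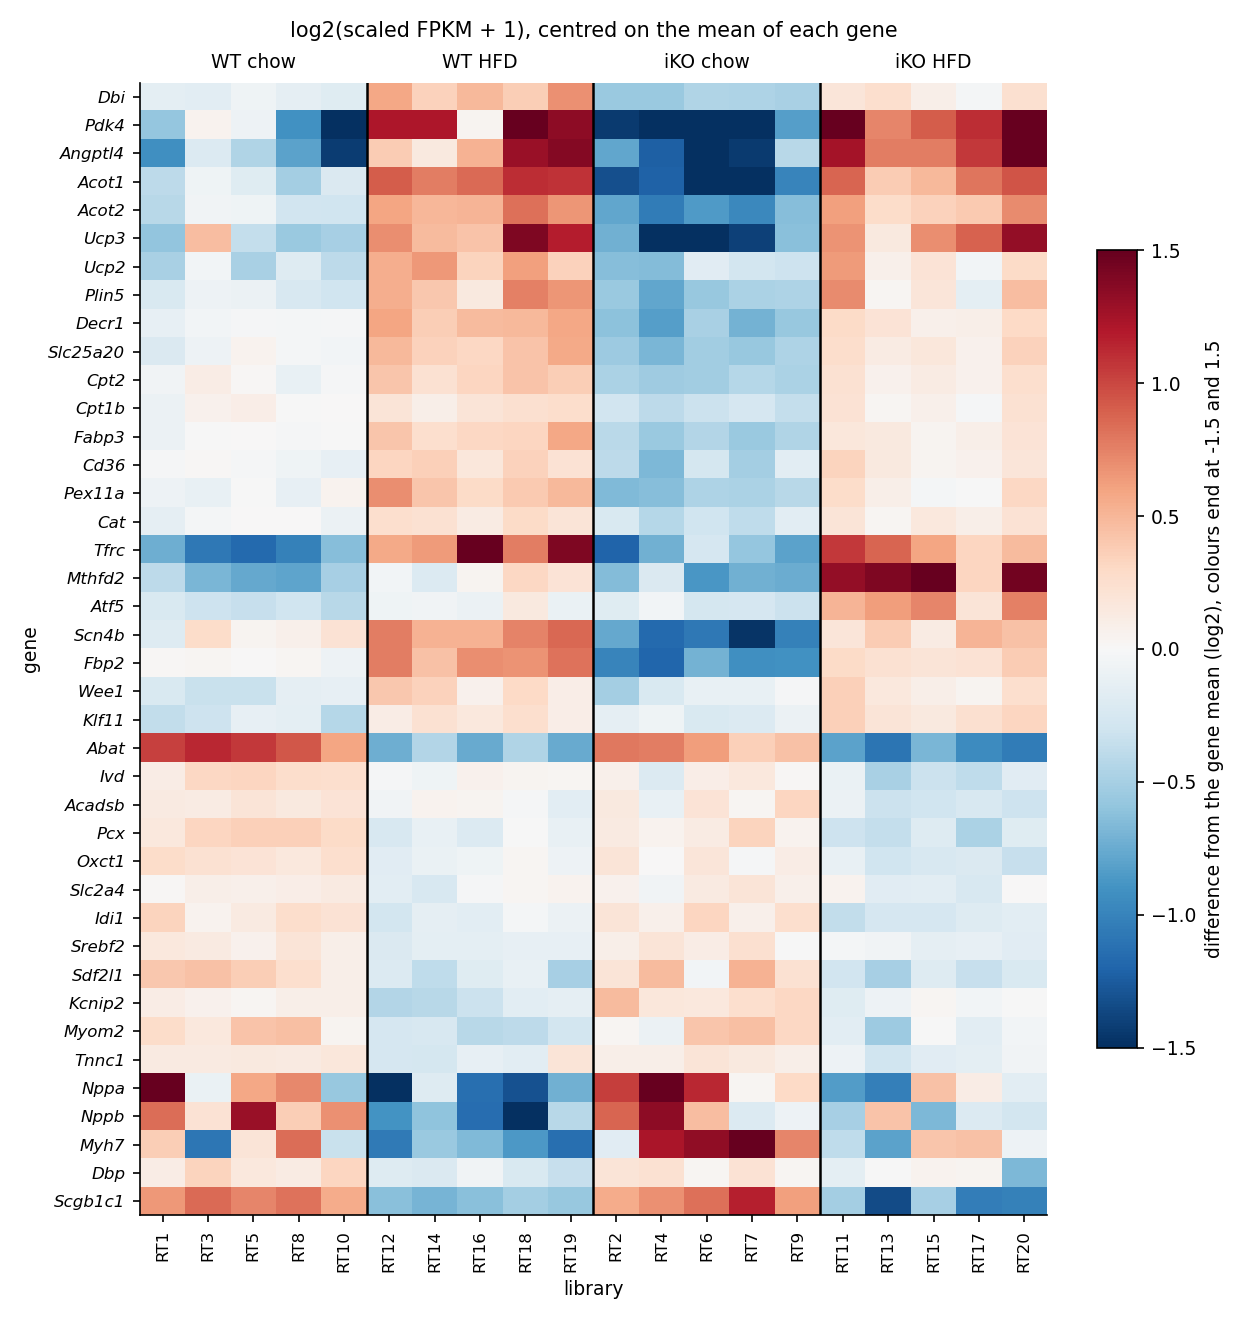
Log2(scaled FPKM + 1) of 40 genes (rows) in each of the 20 libraries (columns, by group), centred on the mean of each gene; red is above and blue below the gene mean, and colours end at -1.5 and 1.5. Genes of fatty acid use are red in both HFD groups and bluest in iKO on chow, and Abat and Scgb1c1 are blue in both HFD groups.

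Contractile genes were lower on HFD. Of 26 tested sarcomere and Z-disc genes 11 were called lower and none higher, with a median of -0.17. Myom2, an M-band protein, fell from 174 to 254 scaled FPKM (median 226) to 127 to 184 (median 156), by 0.50 ± 0.08 (limma, adjusted p = 0.00019). The essential light chain Myl3 fell by 0.28, the regulatory light chain Myl2 by 0.24, cardiac troponin C, Tnnc1, by 0.27 and myosin binding protein C, Mybpc3, by 0.24. Their ranges overlapped: Tnnc1 was at 1997 to 2161 scaled FPKM on chow and 1534 to 2156 on HFD, where RT19 alone was above 1819. With estimated depth as covariate 6 members were called lower. The summed level of the 11 cardiomyocyte markers, which share members with this list, was 38014 to 45126 scaled FPKM on chow (median 43701). It was 35872 to 48352 on HFD (median 39317), highest in RT19. Of these markers 4 were called lower and none higher, with a median change of -0.12.

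Of 19 tested genes that mark stress and hypertrophy of the ventricle 4 were called lower and 1, Fhl1, higher, with a median of -0.05. Fhl1 (0.17, adjusted p = 0.0484) lost its call without any of 15 single libraries. The 4 that fell varied widely between mice. Nppa, atrial natriuretic peptide, was at 55.4 to 337 scaled FPKM on chow (median 130) and 20.8 to 112 on HFD (median 47.7), and the ranges overlapped. Its change was -1.35 ± 0.32 (limma, adjusted p = 0.0102). It was highest in RT1 (337) and RT4 (254), the libraries with atrial transcripts; without both the change was -1.07 and still called (adjusted p = 0.0233), and with estimated depth as covariate it was -1.32 and not called (adjusted p = 0.062). Nppb, B-type natriuretic peptide, fell by 1.16 ± 0.23 (limma, adjusted p = 0.00306), from 98.1 to 288 scaled FPKM (median 169.7) to 38.8 to 153 (median 76.8), and kept its call without both libraries (-1.03, adjusted p = 0.0131). The stress-induced ankyrin repeat gene Ankrd1 fell by 0.77 ± 0.19, from 490 to 1014 scaled FPKM to 194 to 602, and kept its call without RT1 and RT4. Myh7, the slow myosin heavy chain of the fetal ventricle, was at 12.2 to 80.4 scaled FPKM on chow and 11.8 to 36.9 on HFD, with a change of -0.93 ± 0.25 (limma, adjusted p = 0.0198) that was not called without RT1 and RT4 (-0.85, adjusted p = 0.0648). In the single genotypes none of Nppa, Ankrd1 and Myh7 was called, and Nppb was called in WT (-1.60) but not in iKO (-0.72, adjusted p = 0.22), without a called difference between genotypes.

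**Figure D4:**
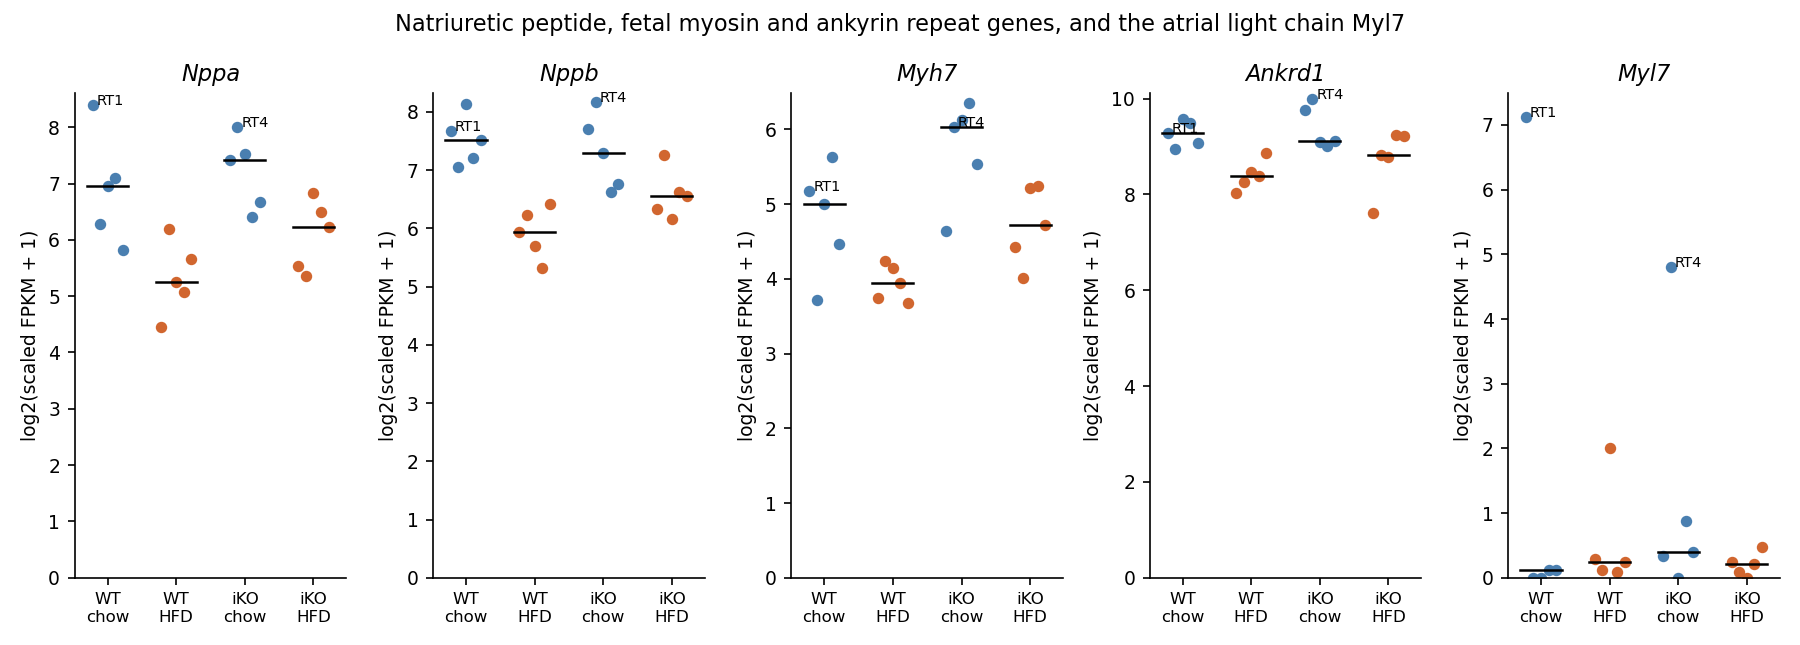
Log2(scaled FPKM + 1) (y axis) of Nppa, Nppb, Myh7, Ankrd1 and the atrial light chain Myl7 in each library by group; bars are medians of 5 mice and the libraries RT1 and RT4 are named. Myl7 reaches 139 scaled FPKM in RT1 and 27.003 in RT4, and at most 2.997 in any HFD library.

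Ion channel and junction genes moved in both directions, with 5 of 25 called higher and 3 lower, beside 5.47% and 4.93% of all genes tested. In WT alone 1 was called higher and 1 lower, and in iKO 4 higher and 1 lower. Scn4b, a sodium channel beta subunit, rose by 1.01 ± 0.12 (limma, adjusted p = 2.03e-05), from 5.28 to 20.2 scaled FPKM (median 11.8) to 18.04 to 30.7 (median 23.9). The overlap came from WT chow mice: the chow means were 17.6 ± 2.30 (SD, n = 5) in WT and 7.25 ± 1.44 in iKO. Scn4a, a sodium channel alpha subunit of skeletal muscle, rose by 0.44 and Kcnj3, a subunit of the acetylcholine-activated potassium channel, by 0.37. Kcnip2, the subunit that sets the transient outward potassium current, fell by 0.35 ± 0.05 without overlap, from 69.9 to 94.9 scaled FPKM to 49.8 to 69.6, and the gap junction gene Gja1 fell by 0.41.

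Clock genes were moved in part. Of 20 tested members 2 were called higher and 3 lower, beside 5.47% and 4.93% of all genes tested. Wee1, a cell cycle kinase under clock control, rose by 0.43 ± 0.06 without overlap, Dbp, an output factor of the clock, fell by 0.35 ± 0.07 (55.9 to 69.6 scaled FPKM on chow, 34.1 to 57.2 on HFD) and Ciart, a repressor, fell by 0.50 ± 0.09. The core activator Arntl (-0.09, adjusted p = 0.408) and Per3 (0.10, adjusted p = 0.327) were not called. Per2 was called higher, by 0.232 to 0.315 when single libraries were left out. Its call was lost without RT1 and RT4 together, without scaling, with no minimum on low values and with estimated depth as covariate. The labels give no hour of tissue collection. Of 27 glucocorticoid and FOXO responsive genes 6 were called higher and none lower, with a median of 0.19 (3 higher with estimated depth as covariate). Klf11 rose by 0.42 ± 0.05 without overlap, the ubiquitin ligase Fbxo32 rose by 0.35 and the glucose-responsive gene Txnip by 0.54 (adjusted p = 0.0618 without RT1 and RT4), while Klf15, a metabolic regulator of heart muscle, was at 0.19 (adjusted p = 0.231).

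Of 34 tested collagen and matrix genes 2 were called lower, beside 4.93% of all genes, Fbn1 (-0.30) and Col3a1 (-0.45), and neither was called without RT1 and RT4 (limma, adjusted p = 0.0849 and 0.0763). Col3a1 also lost its call without RT2 or RT18 alone (adjusted p = 0.057 and 0.0529). Of 16 tested inflammation and complement genes 1 was called lower, again beside 4.93% of all genes. It was the chemokine Ccl2 (-0.54, limma, adjusted p = 0.0458), which lost its call without any of 12 single libraries and without RT1 and RT4 together (adjusted p = 0.0974). The endothelial peptide Apln fell by 0.42 ± 0.05 without overlap, from 3.90 to 5.41 scaled FPKM to 2.65 to 3.83, and the receptor Flt1 rose by 0.24. None of 80 cytosolic ribosomal protein genes was called by limma, with 5 at an unadjusted p under 0.05. The one with the smallest p-value was Rps2 (0.12, adjusted p = 0.0772), which was called when depth was a covariate or RT7 or RT17 was left out.

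Each genotype was also tested on its own. In WT 327 genes were called (2.56% of the genes tested), 178 higher (1.39%) and 149 lower (1.17%). In iKO 560 were called (4.38%), 328 higher (2.57%) and 232 lower (1.82%). In both genotypes 187 genes were called (1.46%), 117 higher (0.916%) and 70 lower (0.548%), all in the same direction. They make up 57.2% of the WT calls and 33.4% of the iKO calls. Of the WT calls 96.6% had the same sign in iKO and of the iKO calls 96.2% had the same sign in WT, against 67.0% of all genes tested, and the mice of these comparisons are separate. All 1329 genes of the pooled comparison had the same sign in both genotypes, which the pooling favours, since it selects genes whose average over both is large. The diet effect itself differed between the genotypes for no gene at an adjusted p under 0.05: the smallest adjusted p from limma was 0.098, and 537 genes (4.2%) had an unadjusted p under 0.05. Of the 187 shared genes 122 had the larger estimate in iKO.

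The estimates of both genotypes are set beside their levels for a few of these genes. On chow Pdk4 averaged 98.6 ± 40.2 scaled FPKM (SD, n = 5) in the WT mice and 44.6 ± 21.2 in the iKO mice, and on HFD 325 ± 119 and 345 ± 115, so the HFD groups lay closer to each other than the chow groups did. Ucp3 was at 15.2 ± 5.80 and 7.49 ± 3.35 on chow and 34.6 ± 10.9 and 32.3 ± 9.62 on HFD. Mthfd2 differed from these, with equal chow levels (0.82 ± 0.22 in WT and 0.81 ± 0.34 in iKO) and HFD levels of 1.94 ± 0.41 and 5.71 ± 1.84. The interaction estimate was 1.25 for Pdk4, 0.87 for Ucp3 and 1.16 for Mthfd2, and none passed the adjusted threshold. Abat, Gnb3 and Dbi had interaction estimates within 0.1 of 0.

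**Figure D5:**
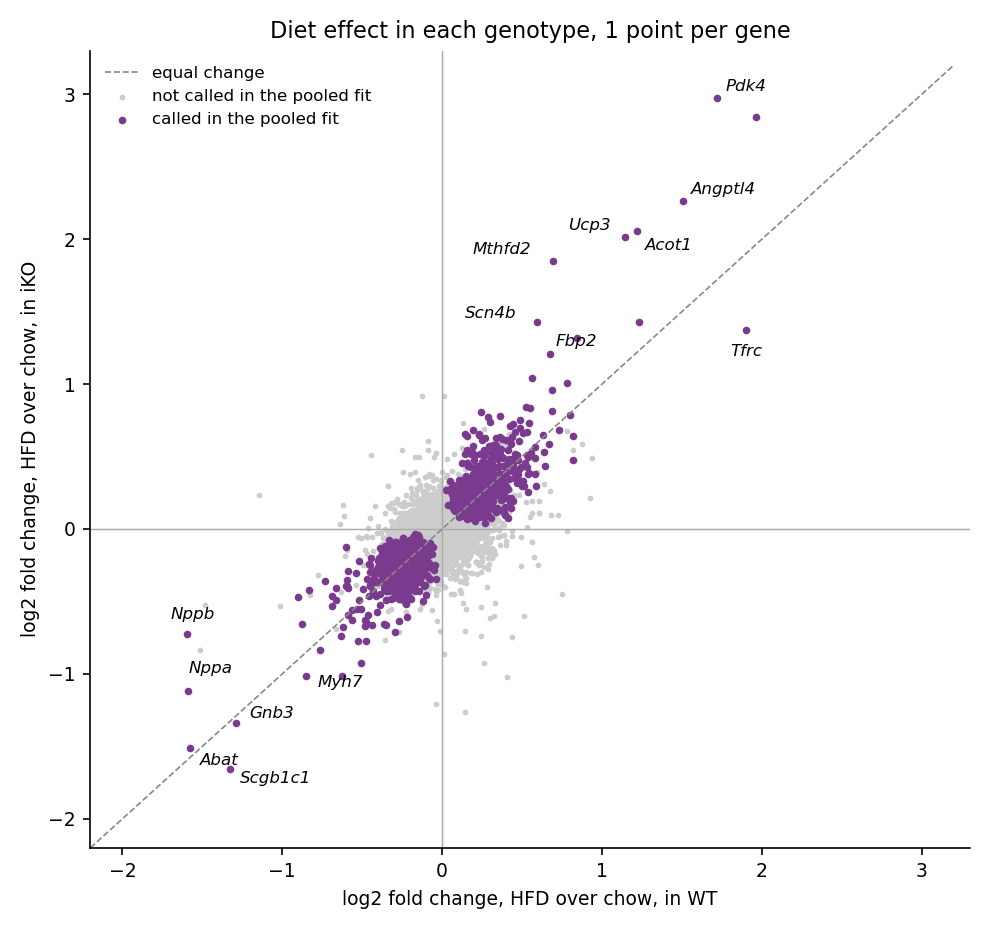
Log2 fold change, HFD over chow, in WT (x axis) against iKO (y axis), 1 point per tested gene; purple points were called in the pooled comparison and the dashed line marks equal change. Pdk4 lies at 1.72 and 2.97, above the line, and Abat at -1.58 and -1.51, on it.

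The remaining large changes fell outside the lists. Scgb1c1, a small secreted protein gene, went from 13.8 to 21.7 scaled FPKM (median 15.5) to 2.98 to 6.16 (median 5.56), by -1.49 ± 0.10 (limma, adjusted p = 5.41e-09). Gnb3, a beta subunit of heterotrimeric G proteins, went from 6.29 to 9.01 scaled FPKM (median 7.69) to 1.25 to 4.14 (median 2.61), by -1.31 ± 0.10 (limma, adjusted p = 8.72e-09). Neither overlapped, and both fell in each genotype (Scgb1c1 by 1.32 and 1.65, Gnb3 by 1.29 and 1.34 in WT and iKO). Lrrc4b (-0.80), the threonine breakdown enzyme gene Gcat (-0.65) and the receptor partner Ramp1 (-0.65) fell without overlap too, the endocytosis adaptor Epn3 (-0.82) with overlap. Ptgds, prostaglandin D synthase, was lower by 0.69 (adjusted p = 0.04) and lost its call without any of 11 single libraries, 6 on chow and 5 on HFD. The galectin gene Lgals4 rose by 0.90 ± 0.11 (limma, adjusted p = 1.08e-05), from 2.12 to 7.33 scaled FPKM to 6.70 to 13.4.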

How the data were processed

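Left ventricle RNA of 20 male mice, 5 in each of 4 groups, was sequenced as poly(A) TruSeq libraries with 100 nt single-end reads, per the labels' protocols. Values were deposited by the authors as FPKM per gene in 1 file per library. The submitters' processing notes name Bowtie2, RSEM, DESeq2 and mm9, with no versions. Of 25052 gene IDs 24938 are in GENCODE M21 (19995 with the same version), so coordinates are those of GRCm38 by ID. Promoter sequences are from RefSeq GRCm38.p6.

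Since FPKM are not counts, no count test was run. Libraries were scaled by median of ratios, genes that reached 0.5 FPKM in 5 or more libraries were kept, and log2(FPKM + 1) was fitted with limma 3.58.1 (R 4.3.3) with diet and genotype as terms, an intensity trend and robust moderation. The effect in each genotype and the difference between them came from the 4 group means. P-values were adjusted by Benjamini-Hochberg over all genes, with calls at 0.05. Depth was estimated from the steps that 1 read makes in the values of 127 to 198 short genes per library, of which 58.6% to 73.5% came out whole within 0.05 reads. Correlations between libraries were 0.990 to 0.997. The fit was tested on simulated data.

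The comparison, its members and the 62 gene lists (49 of pathways, 13 of cell type markers) were chosen with earlier results of these data known. Genes named are a part of those given by a rule: up to 12 largest called increases and 12 decreases, the 5 smallest p-values, up to 4 called members of each pathway list, and a fixed set. Other genes named in the text were chosen after their values were seen. Alternatives changed the pseudocount, the minimum, the scaling, the variance model, library weights and the genotype term, left out libraries, and added depth as a covariate. Tables and plots were made in Python 3.11.15 (pandas 2.3.3, numpy 2.4.6, matplotlib 3.10.9, scipy 1.17.1). Some genes are not reported here.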

Additional observations from a re-analysis of the deposited data

Results flagged for a closer look

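Within each group of 5 mice, a library was singled out when its gap to the nearest of the others was more than 0.71 of the range of the group (Dixon's 95% critical value). This was met in 35 of 592 combinations of gene and group, and chance alone gives about 1 in 20. All values are scaled FPKM.

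RT1 (WT, chow), the library with the most atrial transcripts, was the highest of its group for Nppa (337, next 136). It was the lowest of its group for genes of fatty acid use, namely Acaa2 (483, next 539), Acadm (622, next 662), Decr1 (150.1, next 158), Fabp3 (3229, next 3395) and Hadhb (1189, next 1279), and for Hsd17b10 (95.0, next 105). None of these genes lost its pooled call when RT1 was left out. RT4 (iKO, chow), the other library with atrial transcripts, was lowest for Fbxo32 (19.5, next 24.4), Gcdh (20.7, next 25.3) and Slc27a1 (27.02, next 34.0).

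RT19 (WT, HFD) was highest of its group for Acat1 (231, next 213), Mpc1 (549, next 482), Rps2 (639, next 553), Tfeb (9.63, next 8.14) and Tnnc1 (2156, next 1731), and lowest for Ppara (7.88, next 12.6) and Scn4a (6.45, next 8.20). RT18 in the same group was highest for Atf5 (20.2, next 17.4), Fabp4 (578, next 496) and Slc22a5 (12.02, next 10.3), and RT14 was lowest for Mvk (2.16, next 2.83).

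RT10 (WT, chow) was highest for Asns (1.24, next 0.756) and Tnnc1 (2115, next 2077) and lowest for Fbp2 (16.5, next 17.5) and Ramp1 (2.05, next 2.57). RT3 in that group was highest for Ucp3 (25.4, next 13.98) and Agpat3 (57.5, next 52.5), and RT8 for Bckdhb (28.2, next 25.9). In iKO on chow, RT7 was lowest for Gja1 (95.1, next 112) and highest for Pcx (7.87, next 6.70), and RT6 was lowest for Slc2a1 (3.06, next 4.23). In iKO on HFD, RT17 was lowest for Mthfd2 (2.51, next 5.98) and Aldh1l2 (2.04, next 3.07), both genes of mitochondrial folate metabolism, RT11 was highest for Abcd3 (44.2, next 41.8) and RT20 for Gnmt (0.981, next 0.610).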

How the results depend on the processing

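No called gene among those named changed direction under any alternative that was run. Estimates near 0 that were not called did: Ppara was at 0.023 with library quality weights, 0.005 without RT1 and RT4, and -0.061 to 0.043 when single libraries were left out, Tfeb was at 0.017 with depth as covariate, and Fads2 ranged from -0.062 to 0.007 over single libraries left out. The cause was not tested.

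With no minimum on low values, which tests more genes, 204 genes were called in WT (111 higher, 93 lower), 354 in iKO (133 lower) and 112 in both. On unscaled FPKM 3377 genes were called over both genotypes (327 higher, 3050 lower, 3372 with the same sign in both), 1027 in WT (98 higher, 929 lower), 1279 in iKO (211 higher, 1068 lower) and 535 in both, and the diet effect differed between genotypes for 4. Library quality weights gave 812 calls in WT (416 higher, 396 lower). Depth as a covariate, an alternative chosen after seeing the data, left 830 calls (346 lower).

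Leaving out single libraries gave 1116 to 1671 calls over both genotypes, 193 to 386 in WT (106 to 199 higher, 87 to 187 lower), 394 to 684 in iKO (134 to 294 lower), 127 to 226 in both, and 0 to 4 differences between genotypes, of which 1 came without RT10 and 4 without RT17. The WT counts were lowest without RT12. WT increases were 114 without RT1, WT decreases 96 without RT5 and 97 without RT8 or RT14, and iKO decreases 134 without RT13. Of the 190 called genes that the naming rule or the text picked 171 were called in all 20 of these fits.

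No paired analysis was possible because the library numbers are unique and the groups share none. The median SE over all genes tested was 0.052 over both genotypes and 0.105 for the difference between them.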

Other observations

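The genes in both paragraphs were chosen after their values were seen, and for their direction, so they show no pattern of a pathway. Kyat3, a transaminase of kynurenine and glutamine, was at 11.9 to 16.6 scaled FPKM on chow (median 14.8) and 8.38 to 12.4 on HFD (median 10.5), a change of -0.46 ± 0.05 (limma SE, adjusted p = 4.59e-07). Its ranges overlapped slightly. Gcdh, the dehydrogenase of lysine and tryptophan breakdown, changed by -0.33 ± 0.04 (limma, adjusted p = 1.95e-05), the proline pathway enzyme Aldh4a1 by -0.25 ± 0.04 (limma, adjusted p = 0.00046) and the glycine methyltransferase Gnmt by -0.48 ± 0.07 (limma, adjusted p = 0.000137) at levels of 0.545 to 1.996 scaled FPKM. Each of the 4 had estimates below 0 in both genotypes, and Gcdh, for example, was at -0.30 in WT and -0.36 in iKO. The malic enzymes moved apart: mitochondrial Me2 fell by 0.27 ± 0.04 without overlap, from 2.88 to 3.78 scaled FPKM to 2.18 to 2.84, while cytosolic Me1 rose.

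Among genes that were higher on HFD, Hsdl2, a peroxisomal dehydrogenase-like protein, went from 69.7 to 115 scaled FPKM (median 98.4) to 116 to 155 (median 146), by 0.56 ± 0.05 (limma, adjusted p = 2.72e-07), and did not overlap. Lpcat3, which puts polyunsaturated chains into phospholipids, rose by 0.57 ± 0.06, the retinol saturase Retsat by 0.52 ± 0.06, the flavin monooxygenase Fmo2 by 0.53 ± 0.07 and the cholesterol exporter Abca1 by 0.48 ± 0.08. Of these 4 Fmo2 had no overlap between the diets, at 10.95 to 15.6 and 16.5 to 26.5 scaled FPKM. The inositol monophosphatase Impa2 (0.80 ± 0.08) and the butyrophilin-like gene Btnl9 (0.69 ± 0.07) did not overlap either. Edn3, which encodes an endothelin, rose by 0.71 ± 0.08 (limma, adjusted p = 4.56e-06), from 0.461 to 1.76 scaled FPKM to 1.68 to 3.89.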
